A study of Mus musculus with 7 samples.

Results

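Within the run of genes on distal mouse chromosome 5 that had lower means in cells with a deletion of band 5G2 (5G2del), 10 protein-coding genes between Rasa4 and Zan are described here: Polr2j, Alkbh4, Prkrip1, Myl10, Ift22, Znhit1, Plod3, Ap1s1, Srrt and Trip6. They are 10 of the 16760 genes in the deposited table and 10 of the 28 measured genes from Rasa4 to Zan, and all 10 were found by gene name. The run was marked off from the difference between the same 3 5G2del and 4 wild-type (WT) libraries, and its genes were all lower in 5G2del, so the direction and size of that difference in these 10 genes are given as a description, without a test.

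The series holds RNA sequencing of 3 5G2del and 4 WT libraries from C57/B6 mice. The cells were sorted as negative for CD150, the product of Slamf1, and carry the label HSC (haematopoietic stem cell). Band 5G2 corresponds to a segment of human 7q22, a region lost in some myeloid malignancies. The labels do not state where the deletion begins and ends, its zygosity, or the age and number of the animals. Libraries are named by group and letter, since the columns of the table show a library's group and not its sample number.

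The 10 genes belong to different machines of the cell. Polr2j encodes the RPB11 subunit of RNA polymerase II, Srrt (ARS2) ties the cap-binding complex to the processing and decay of new transcripts, and Prkrip1 is a spliceosome protein that also binds and inhibits the kinase PKR. Znhit1 is a subunit of the SRCAP complex, which places the histone variant H2A.Z in chromatin, and Alkbh4 is a dioxygenase of the AlkB family. Ap1s1 is a small subunit of the AP-1 adaptor of clathrin vesicles, Ift22 a small GTPase-like subunit of the intraflagellar transport B complex, Myl10 a myosin regulatory light chain, Trip6 a LIM domain protein of the zyxin family, and Plod3 an enzyme that hydroxylates and glycosylates collagen lysines.

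Positions below are those of the GENCODE M21 annotation of mm10. The 10 genes span 1.20 Mb, from Polr2j at chr5:136116631-136122947 on the plus strand to Trip6 at chr5:137309654-137314404 on the minus strand, and 24 annotated protein-coding genes lie wholly within that span. In between lie Alkbh4 (chr5:136136146-136141615, plus), Prkrip1 (chr5:136178127-136198963, minus), Myl10 (chr5:136693146-136701094, plus), Ift22 (chr5:136908150-136915404, plus), Znhit1 (chr5:136982164-136988021, minus), Plod3 (chr5:136987019-136996648, plus), Ap1s1 (chr5:137034993-137046135, minus) and Srrt (chr5:137295704-137307674, minus). Each strand carries 5 of them. Znhit1 and Plod3 run in opposite directions and share 1003 bases at their 5' ends. Alkbh4 starts 71 bases from Lrwd1, which runs the other way. Polr2j overlaps Lrwd1 by 176 bases at the 3' end and the antisense gene Gm43604 by 705 bases.

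Promoter windows of 300 bases, 250 before and 50 after the start site, were found for all 10 genes in RefSeq on GRCm38.p6. Alkbh4 and Myl10 had 3 windows each and Znhit1 had 2, and for these the window nearest the GENCODE start was used. Motifs and base composition of the 10 genes are given for the chosen windows alone. They are shown for 4 genes: Alkbh4 and Plod3, which start beside a neighbour on the other strand, Myl10, which had the largest difference between the groups, and Polr2j, which held the most kinds of motif. Capitals mark every match, on either strand, to the GC box GGGCGG, the CCAAT box CCAAT, the ETS core CCGGAAG, the NRF1 core GCATGCGC, the TATA box TATAAA or the cAMP response element TGACGTCA.
Polr2j (chr5:136116441-136116740, plus strand): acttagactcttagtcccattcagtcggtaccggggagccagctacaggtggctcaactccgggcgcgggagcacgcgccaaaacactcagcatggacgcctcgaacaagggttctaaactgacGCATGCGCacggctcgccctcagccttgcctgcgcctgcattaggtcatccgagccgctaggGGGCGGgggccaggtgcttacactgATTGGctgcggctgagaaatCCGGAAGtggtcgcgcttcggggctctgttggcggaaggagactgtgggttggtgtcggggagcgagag
Alkbh4 (chr5:136135895-136136194, plus strand): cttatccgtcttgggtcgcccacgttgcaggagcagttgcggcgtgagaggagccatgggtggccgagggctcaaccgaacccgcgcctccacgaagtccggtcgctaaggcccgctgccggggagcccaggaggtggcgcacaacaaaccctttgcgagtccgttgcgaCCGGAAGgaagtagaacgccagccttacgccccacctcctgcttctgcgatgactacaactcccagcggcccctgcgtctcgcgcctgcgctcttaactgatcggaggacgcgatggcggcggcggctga
Plod3 (chr5:136986769-136987068, plus strand): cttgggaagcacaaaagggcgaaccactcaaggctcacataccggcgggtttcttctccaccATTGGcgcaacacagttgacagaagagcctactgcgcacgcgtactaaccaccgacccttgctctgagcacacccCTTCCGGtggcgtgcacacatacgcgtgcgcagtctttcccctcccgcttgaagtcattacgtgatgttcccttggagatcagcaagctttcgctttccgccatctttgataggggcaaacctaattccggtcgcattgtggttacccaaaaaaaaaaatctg
Myl10 (chr5:136692896-136693195, plus strand): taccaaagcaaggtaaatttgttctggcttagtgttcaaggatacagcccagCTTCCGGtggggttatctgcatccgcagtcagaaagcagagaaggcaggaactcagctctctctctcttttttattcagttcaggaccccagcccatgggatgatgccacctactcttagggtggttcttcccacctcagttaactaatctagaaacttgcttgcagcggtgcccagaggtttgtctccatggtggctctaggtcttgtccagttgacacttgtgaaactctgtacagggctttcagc

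The Alkbh4 window overlaps that of Lrwd1 by 170 bases, and the Plod3 window overlaps a second RefSeq window of Znhit1 by 214 bases. Myl10 stood apart in base composition, with 3 CpG dinucleotides in its window and a ratio of observed to expected CpG of 0.164, while the other 9 windows held 10 to 33 CpG and ratios from 0.435 to 1.01. The median ratio over 32851 mouse promoter windows was 0.384. The ETS core was found in 4 of the 10 windows (Polr2j, Alkbh4, Myl10 and Plod3) and in 8.86% of all windows. The CCAAT box was found in 5 of 10 and in 37.4% of all windows, the GC box in 3 of 10 and 35.7%, the NRF1 core in 2 of 10 and 2.71%, and the cAMP response element in Trip6 alone of the 10 and in 1.79% of all windows. The TATA box was found in 0 of 10 and in 13.6% of all windows. The Prkrip1 window holds the NRF1 core on both strands at 1 overlapping place. The E-box CANNTG, not marked above, was found in 7 of 10 and in 72.3% of all windows.

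The sum of expected counts per library came to 38741356 to 47664360 in the 5G2del libraries and 37930174 to 52194274 in the WT libraries, and the group means did not differ beyond the spread of libraries (two-sided exact permutation p = 0.543). Mitochondrial ribosomal RNA took a mean share of 24.8% ± 2.60 in the 3 5G2del libraries and 29.4% ± 3.86 in the 4 WT libraries (SD), with an exact permutation p of 0.171, where the smallest p the 35 splits allow is 0.0286. Genes at 0 counts numbered 83 to 492 in the 5G2del libraries, 105 to 226 in 3 WT libraries and 1104 in WT-B. The 10 genes had between 46 and 3298 expected counts per library. Reads were amplified without molecular identifiers, so such counts are not independent molecules. Of 7 progenitor surface genes, Kit was at 8.18 to 8.23 in 5G2del, as log2 CPM (log2 of counts scaled to library size), and 7.98 to 8.22 in WT. Slamf1 was low, at 0.40 to 0.65 in 5G2del and -2.22 to -0.26 in WT. Means in 5G2del were lower for 2 of the 7, Ly6a (log2 fold change, 5G2del over WT, -0.42 ± 0.31, SE) and Flt3 (-0.20 ± 0.24). The others were Slamf1 (1.66 ± 0.75), Cd48 (0.99 ± 0.42), Procr (0.22 ± 0.20), Cd34 (0.13 ± 0.16) and Kit (0.09 ± 0.13). The groups overlapped for all but Slamf1.

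All 10 genes had lower means in 5G2del, which the choice of the run fixes; among all genes, 46.7% did. Their log2 fold changes, 5G2del over WT, ran from -2.03 for Myl10 to -0.28 for Trip6, with a median of -0.61, or 65.6% of the WT level. The median over all 16760 genes was 0.03. The other 18 measured genes from Rasa4 to Zan had a median of -0.91. For 1 of the 10, Srrt, the highest 5G2del library was below the lowest WT library, as for 8 of the 18 others and for 2.78% of all genes.

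**Figure D1:**
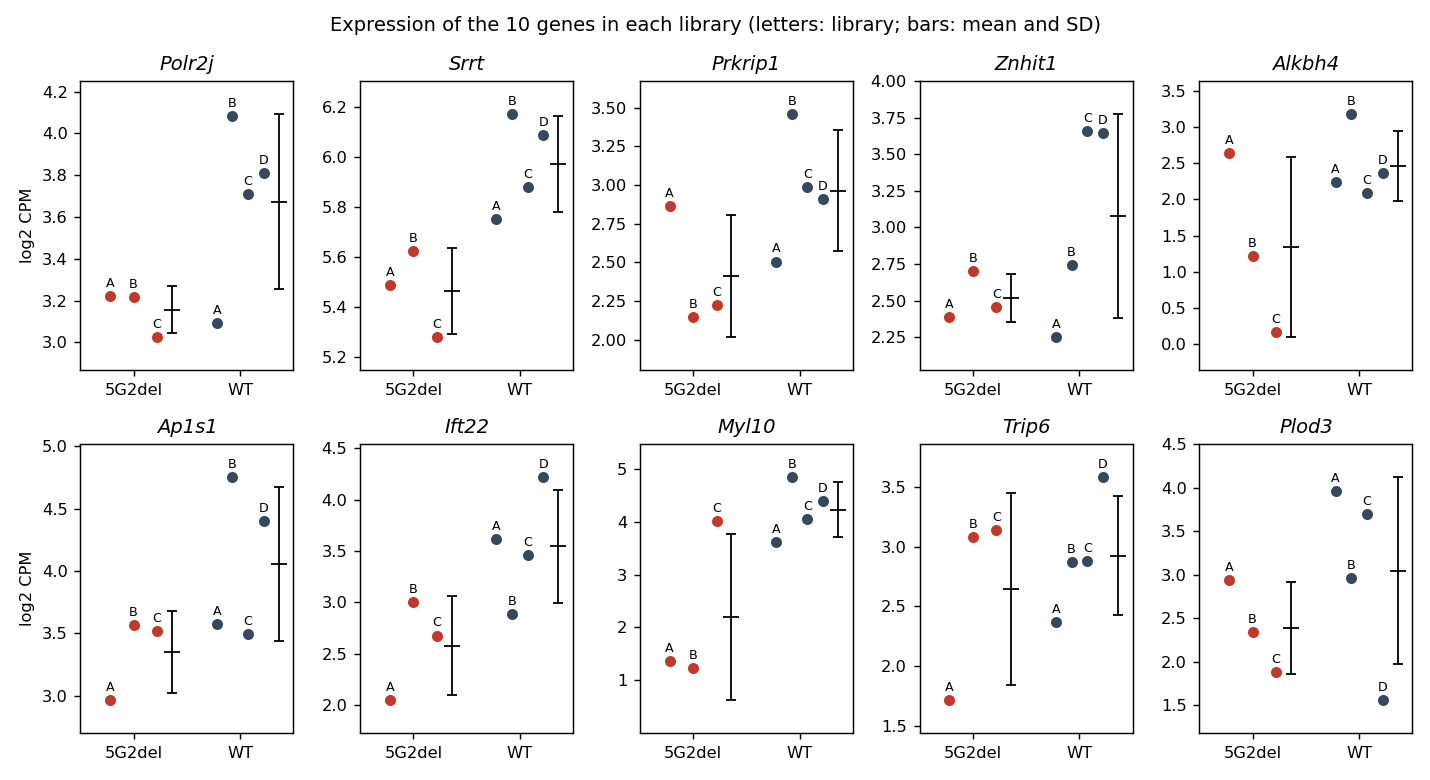
Expression of the 10 genes as log2 CPM, with 1 point per library and its letter, 5G2del left of WT, and bars for the mean and SD (n = 3 and n = 4); each panel has its own axis. Srrt separates the groups; Myl10 in 5G2del-C and Alkbh4 in 5G2del-A lie among the WT libraries.

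Among the genes of transcription and RNA processing, Srrt had the highest level. Its 3 5G2del libraries (A to C) read 5.49, 5.63 and 5.28 log2 CPM, against 5.75, 6.17, 5.88 and 6.09 in WT-A to WT-D. The groups did not overlap, though 5G2del-B and WT-A lay close together. Its log2 fold change was -0.51 ± 0.17 (SE), or 70.3% of the WT level.

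Polr2j measured 3.22, 3.22 and 3.03 log2 CPM in libraries A to C of 5G2del, against 3.09, 4.08, 3.71 and 3.81 in WT-A to WT-D. The 5G2del libraries were within 0.198 of each other, and WT-A lay among them while the other 3 WT libraries were higher. The log2 fold change was -0.52 ± 0.28. RPB11, its product, pairs with RPB3 in the polymerase.

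Prkrip1 measured 2.86, 2.15 and 2.22 log2 CPM in libraries A to C of 5G2del, against 2.51, 3.46, 2.99 and 2.91 in WT-A to WT-D. The groups overlapped through 5G2del-A, which was above WT-A. Its log2 fold change was -0.55 ± 0.33.

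The chromatin gene Znhit1 and the dioxygenase gene Alkbh4 differed in their spread. Znhit1 measured 2.39, 2.70 and 2.46 log2 CPM in libraries A to C of 5G2del, against 2.25, 2.74, 3.66 and 3.65 in WT-A to WT-D. WT-C and WT-D were high, and WT-A was below all 3 5G2del libraries. The log2 fold change of -0.56 ± 0.38 came to -0.36 without WT-C and -0.37 without WT-D.

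Alkbh4 measured 2.64, 1.21 and 0.17 log2 CPM in libraries A to C of 5G2del, against 2.24, 3.17, 2.09 and 2.36 in WT-A to WT-D. It was low in 5G2del-B and 5G2del-C, and in 5G2del-A it was above 3 of the 4 WT libraries. The log2 fold change of -1.12 ± 0.56 came to -1.77 without 5G2del-A and -0.54 without 5G2del-C. The lowest value, in 5G2del-C, rested on 46 expected counts.

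The genes of vesicle and ciliary transport were lower on average with some overlap. Ap1s1 measured 2.97, 3.56 and 3.52 log2 CPM in libraries A to C of 5G2del, against 3.58, 4.75, 3.50 and 4.40 in WT-A to WT-D. WT-A and WT-C were level with 5G2del-B and 5G2del-C, and WT-B and WT-D were higher. Its log2 fold change was -0.71 ± 0.34.

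Ift22 measured 2.05, 3.00 and 2.68 log2 CPM in libraries A to C of 5G2del, against 3.62, 2.89, 3.46 and 4.22 in WT-A to WT-D. Of the WT libraries only WT-B reached down into the 5G2del range. Its log2 fold change was -0.97 ± 0.36, or 51.1% of the WT level.

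Myl10, which RefSeq also lists as Mylc2pl and PLRLC (precursor lymphocyte-specific regulatory light chain), had the largest difference and the widest spread in 5G2del. It measured 1.37, 1.23 and 4.01 log2 CPM in libraries A to C of 5G2del, against 3.62, 4.85, 4.06 and 4.39 in WT-A to WT-D. Expected counts were 108, 100 and 663 in the same 5G2del libraries and 581 to 1193 in the WT libraries. 5G2del-A and 5G2del-B were far below every WT library, while 5G2del-C lay between WT-A and WT-C. The log2 fold change was -2.03 ± 0.59, or 24.5% of the WT level, and ran from -2.93 without 5G2del-C to -1.54 without 5G2del-B.

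Transcripts of the B lineage also varied from library to library. For 7 measured markers of 11 listed, the summed level was 7.88, 4.91 and 7.45 log2 CPM in libraries A to C of 5G2del, against 3.43 to 5.00 in WT, and Vpreb3, Igll1, Ebf1 and Igkc were among those at 0 counts in at least 1 library. The high sums rested on the antibody chain genes Igkc, at 7.51, 3.15 and 6.84 log2 CPM in 5G2del, against -6.60 to 3.44 in WT, and Jchain, at 5.02, 1.92 and 5.17 in 5G2del, against -4.28 to 1.74 in WT. The other markers Cd79b, Igll1 and Ebf1 had log2 fold changes of 0.56 ± 0.27, 0.26 ± 1.82 and -0.71 ± 1.90. Of the 2 5G2del libraries low in Myl10, 5G2del-A was the highest and 5G2del-B the lowest of the group in these markers. For skeletal muscle, 2 of 8 listed genes were in the table, with summed levels of 0.73 to 0.86 log2 CPM in 5G2del and 0.94 to 1.52 in WT. Mature neutrophil and monocyte markers, 11 measured of 14, summed to 10.7, 8.09 and 8.47 log2 CPM in libraries A to C of 5G2del. In WT-A to WT-D they summed to 9.33, 7.90, 8.28 and 8.04, so that the A library of each group was high. Means in 5G2del were lower for 2 of these 11 (median log2 fold change 1.95), and Lcn2, Ltf, Chil3 and Cd177 were at 0 counts in some library. Macrophage and dendritic markers, 7 measured of 10, were lower for 4 of 7 (median log2 fold change -0.05). Stromal and endothelial markers, 6 measured of 9, were lower for 3 of 6 (median -0.05). Erythroid markers, 12 measured of 14, had lower means in 5G2del for 11 of 12 (median log2 fold change -0.60), with sums of 6.35 to 7.17 log2 CPM in 5G2del and 6.78 to 8.15 in WT. T and NK cell markers, 4 measured of 10, had lower means for 3 of 4 and sums of 3.63 to 3.95 in 5G2del and 3.93 to 4.48 in WT. The part of these cell types in the values of Myl10 and the other 9 genes was not tested, and in bulk RNA fewer cells of a type cannot be told apart from less RNA per cell.

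For the adhesion gene Trip6 and the collagen enzyme gene Plod3, the groups overlapped and single libraries moved the difference. Trip6 measured 1.72, 3.09 and 3.14 log2 CPM in libraries A to C of 5G2del, against 2.37, 2.87, 2.88 and 3.59 in WT-A to WT-D. Only 5G2del-A was below the WT range, and the other 2 libraries were above 3 of the 4 WT libraries. The log2 fold change of -0.28 ± 0.42 turned to 0.19 without 5G2del-A, and was -0.49 without 5G2del-B, -0.52 without 5G2del-C, -0.46 without WT-A and -0.06 without WT-D.

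Plod3 measured 2.94, 2.34 and 1.88 log2 CPM in libraries A to C of 5G2del, against 3.96, 2.96, 3.69 and 1.56 in WT-A to WT-D. WT-D was the lowest of all 7 libraries, and the other 3 WT libraries were above every 5G2del library. The log2 fold change of -0.66 ± 0.53 came to -1.15 without WT-D, -0.35 without WT-A and -0.41 without 5G2del-C.

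**Figure D2:**
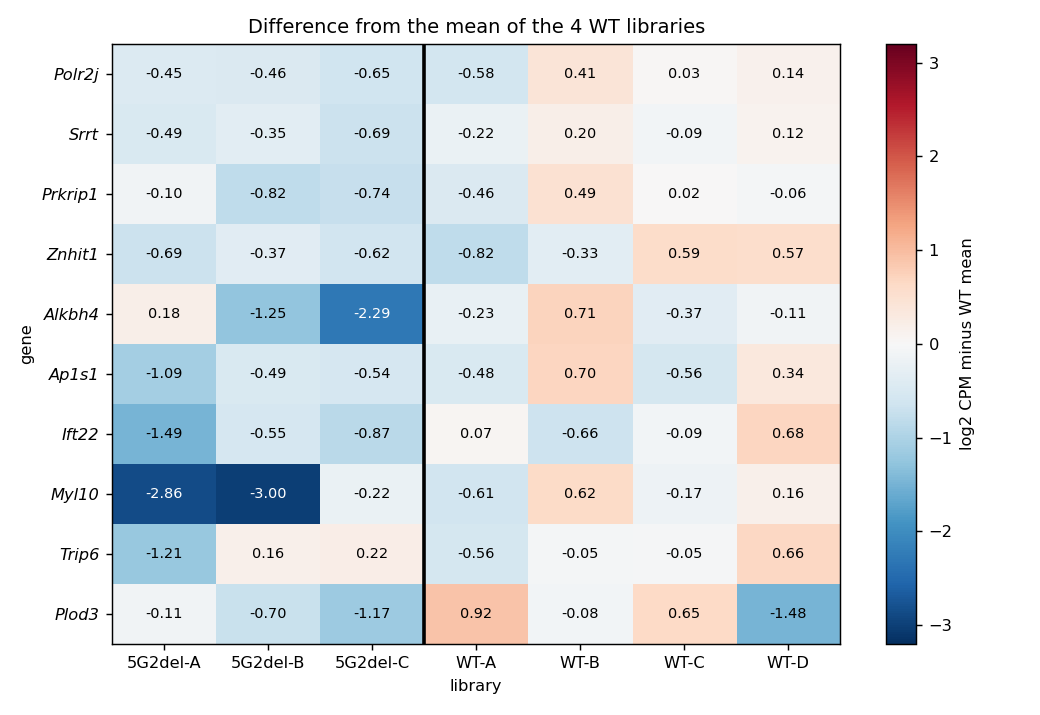
Log2 CPM of each gene (rows) in each library (columns, 5G2del left of the line, WT right of it), minus the mean of the 4 WT libraries; blue is lower and red higher. In 5G2del, 9 of 10 genes lie below the WT mean in each library, which the choice of lowered genes largely fixes. The gene that lies above it is Alkbh4 in 5G2del-A and Trip6 in 5G2del-B and 5G2del-C. In WT-A to WT-D, 8, 4, 6 and 3 of 10 genes lie below it.

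Library by library, 9 of the 10 genes were below their WT mean in each of the 3 5G2del libraries. In the WT libraries the same count was 8, 4, 6 and 3 of 10 in WT-A to WT-D. The genes were chosen as lower in these same 5G2del libraries, so their counts there largely follow from the choice. The mean over the 10 genes was 2.77, 2.81 and 2.84 log2 CPM in the 5G2del libraries, against 3.30, 3.79, 3.59 and 3.70 in WT-A to WT-D. No 5G2del library was lowest throughout: 5G2del-A was the lowest of its group for 4 genes, 5G2del-B for 2 and 5G2del-C for 4. WT-A lay nearest to the 5G2del libraries. It was the lowest WT library for 6 of the 10 genes, and WT-B was the highest for 6. Without WT-A, the groups did not overlap for 5 of the 10 genes, against 1 with it, and for 793 genes in all, against 466 with it.

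The 10 genes did not rank the libraries of a group alike. Over 45 pairs of genes the correlation, across 7 libraries, of deviations from the group means had a median of 0.08, with 27 pairs above 0, and ran from -0.80 for Plod3 and Trip6 to 0.84 for Polr2j and Srrt. These are descriptions over 7 points that share their libraries. The residual SD on the log2 scale was 1.07 for Myl10 and 0.897 for Plod3, above 98.6% and 94.1% of genes of like level (mean log2 CPM within 0.5), and 0.185 for Srrt, above 26.9%.

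Per length, on the scale of log2 CPM per kb of annotated exon, Myl10 had the highest WT level of the 10, at 3.96 ± 0.52 (SD, n = 4), and in 5G2del it was at 1.93 ± 1.57 (SD, n = 3). Srrt and Polr2j followed in WT, at 3.07 in 5G2del and 3.58 in WT for Srrt and at 3.01 and 3.53 for Polr2j. Ap1s1 was at 2.21 in 5G2del and 2.92 in WT, and Znhit1 at 1.62 and 2.18. Ift22 had 0.72 in 5G2del and 1.69 in WT, Trip6 1.37 and 1.65, and Alkbh4 0.26 and 1.38. Prkrip1, at 0.42 in 5G2del and 0.98 in WT, and Plod3, at 0.21 and 0.87, were lowest in WT. Of the 9 steps between neighbours in the WT order, 8 were smaller than the larger SD of the pair, and the step from Ap1s1 to Znhit1 was larger, so the order within each side of it is loose.

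Read sharing touched 3 of the genes. Expected counts were whole numbers, within 0.01, in all 7 libraries for Alkbh4, Prkrip1, Myl10, Ift22, Ap1s1, Srrt and Trip6, as for 61.0% of all genes. They were fractional in all 7 for Polr2j, Znhit1 and Plod3, the 3 genes whose bodies overlap another measured gene. Strand is not stated, so reads in the stretch shared by Znhit1 and Plod3 cannot be assigned with certainty.

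**Figure D3:**
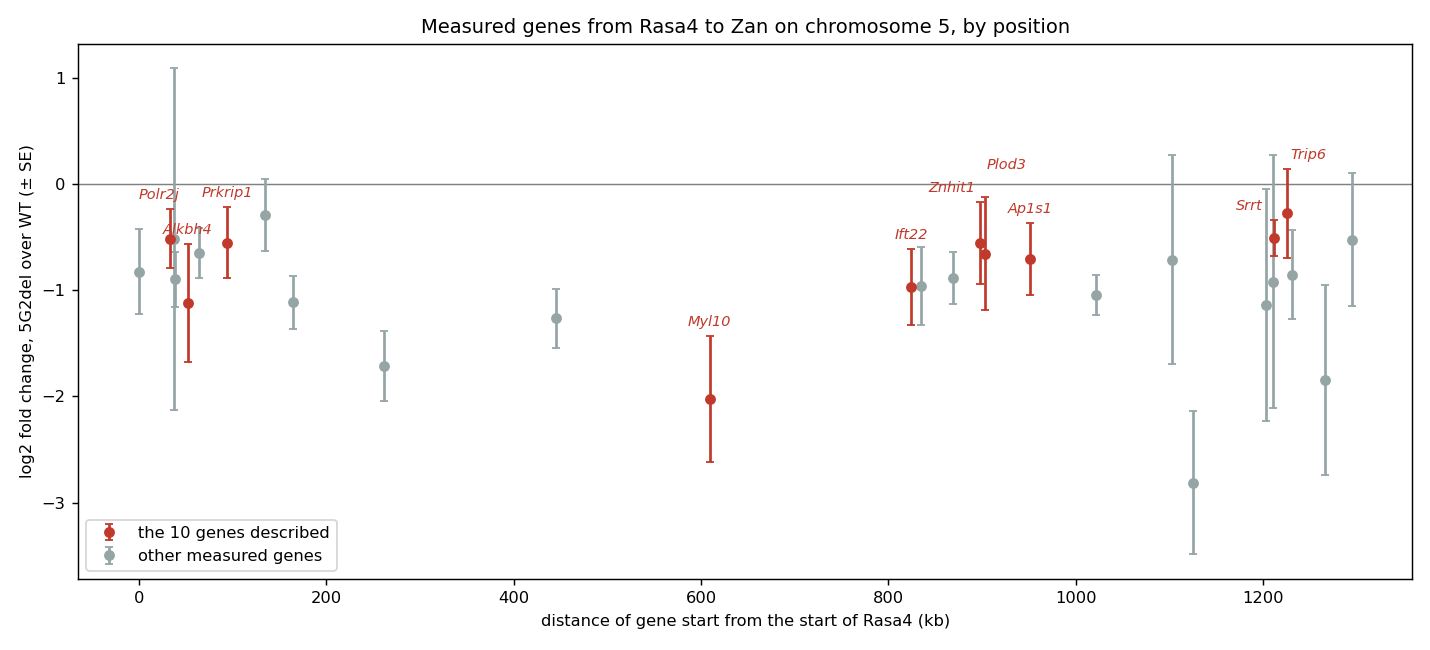
Log2 fold change, 5G2del over WT, with its SE (bars), for the 28 measured genes from Rasa4 to Zan against the distance of their starts from the start of Rasa4 in kb; red points are the 10 genes described and grey points the others. All points lie below 0, and Myl10 is the lowest of the red points.

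At the ends of the run, Rasa4 had a log2 fold change of -0.83 ± 0.40 and Zan of -0.52 ± 0.63, with values that overlapped between groups. The next measured genes outside were Dtx2 at 0.10 ± 0.31 and Pop7 at 0.33 ± 0.29. Polr2j is the first measured gene after Rasa4, and Trip6 is followed by Slc12a9 after 153 bases.

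The genes whose profile over the 7 libraries was most like the mean of the 10, among 10349 others with a mean log2 CPM over 2, lay outside the run. They were Cep135, a centriole protein gene on chromosome 5 (Pearson r = 0.97), Pign (0.97), Rfx5 (0.96), Csf2rb2 (0.95) and Zmat1 (0.95). In each the groups did not overlap, which follows from the choice, since the mean of the 10 genes itself separated the groups; Cep135 was at 3.91, 3.87 and 4.09 log2 CPM in 5G2del and 4.45 to 5.03 in WT. An r above 0.8 was found for 156 of the 10349 genes (median r -0.01 over all), and for 4 of the 10 candidates that lie in the run (median r 0.75), whose group difference chose the run.

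The genes that work with these 10, or resemble them, were examined next. They lie elsewhere and were not chosen by the run, but the lists were drawn up with earlier results of these data known. The genes named from each list include the 2 with the smallest p in this same comparison. Of 139 partner and related genes in 11 lists, 128 were measured. In limma-trend 0 of the 128 passed an adjusted p of 0.05 over all genes, with a lowest adjusted p of 0.989, as 0 of all 16760 genes did (0%, lowest adjusted p 0.151); limma without the trend and the voom fit also called 0 of the 128, and the fit without the trend called 1 gene of all, Sfrp5. At an unadjusted p under 0.05, 1 partner was lower, where 2.24% of all genes were, and 5 were higher, where 1.68% were. The whole comparison had 375 genes lower and 281 higher at that level. It had 612 and 148 when the deposited values were rescaled for each library's share of mitochondrial ribosomal RNA, and 278 and 347 in the voom fit. The groups did not overlap for 3 partners that were lower and 4 that were higher (Ppie, Sde2, Vps72 and P4hb), where 2.78% and 2.92% of all genes did so. Partners had a median log2 fold change of 0.04, near the 0.03 of all genes.

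**Figure D4:**
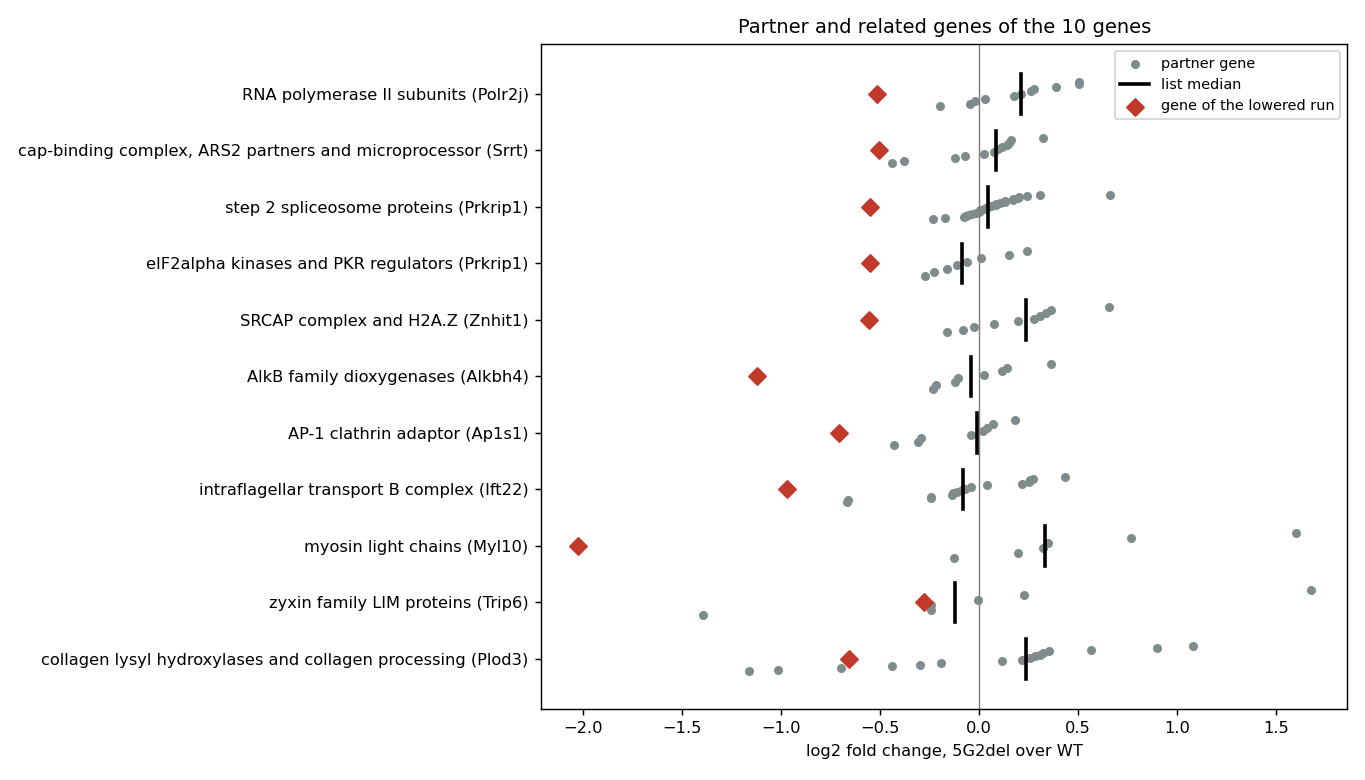
Log2 fold change, 5G2del over WT, of partner and related genes (grey points, spread vertically for sight), with the median of each list (black line) and the gene of the lowered run it belongs to (red diamond). No grey point passed the adjusted threshold. The red diamond lies left of every grey point except in the zyxin and collagen rows, where other genes lie further left. The leftmost of them are Fblim1 (0 to 23 expected counts per library) and Fkbp10 (1 to 123). The red diamonds were chosen as lowered genes, so their place left of 0 was fixed by the choice.

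Of the 11 other RNA polymerase II subunit genes, 3 were lower and 8 higher, with a median of 0.21. Polr2c, which encodes the RPB3 partner of RPB11, averaged 4.70 ± 0.19 log2 CPM in 3 5G2del libraries and 4.43 ± 0.12 in 4 WT libraries (SD), for a log2 fold change of 0.28 ± 0.19. Polr2a, the largest subunit gene, had -0.20 ± 0.17, and Polr2d 0.50 ± 0.24 with overlapping groups. None of the 11 had an unadjusted p under 0.05.

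The 12 measured cap-binding, ARS2 partner and microprocessor genes split into 4 lower and 8 higher (median 0.09). Ncbp1 and Ncbp2, the cap-binding subunits, had log2 fold changes of 0.09 ± 0.26 and 0.33 ± 0.22, and Drosha, the nuclease that cuts primary microRNAs, had -0.38 ± 0.21. Ncbp3 had -0.44 ± 0.28, and WT-B was high for it. The 27 step 2 spliceosome genes had 8 lower and 19 higher (median 0.04). Ppie, a cyclophilin of the spliceosome, was at 3.78, 3.91 and 4.07 log2 CPM in the 5G2del libraries, against 3.28, 2.74, 3.39 and 3.63 in WT, without overlap, for a log2 fold change of 0.66 ± 0.27 that missed the threshold (limma adjusted p = 0.989), beside Dhx8 at 0.31 ± 0.20.

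PKR itself, the product of Eif2ak2, had a log2 fold change of -0.23 ± 0.17, and Eif2ak4 had -0.27 ± 0.21. The list of eIF2alpha kinases and PKR regulators had 5 lower and 3 higher (median -0.09). In the SRCAP and H2A.Z list, 3 were lower and 7 higher (median 0.24). Vps72, the H2A.Z-binding subunit, was at 5.03, 5.33 and 5.21 log2 CPM in the 5G2del libraries, against 3.95, 4.30, 4.93 and 4.94 in WT, without overlap (0.66 ± 0.26; limma adjusted p = 0.989). H2afz, an H2A.Z gene, had 0.36 ± 0.16 and Srcap, the ATPase of the complex, -0.08 ± 0.15. The 8 other AlkB family genes split evenly into 4 lower and 4 higher (median -0.04), with Alkbh7 at 0.36 ± 0.29 and Fto at -0.22 ± 0.18.

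Ap1s1 has 2 paralogs that can fill the same place in the adaptor. Ap1s2 was at 3.63, 2.80 and 2.60 log2 CPM in the 5G2del libraries, against 3.42, 3.78, 3.81 and 2.75 in WT, a log2 fold change of -0.43 ± 0.35, and Ap1s3 had -0.29 ± 0.35. Both overlapped between groups. The 8 measured adaptor genes had 4 lower and 4 higher (median -0.01), and Aftph, a cargo-sorting partner, had -0.31 ± 0.15 without overlap (limma unadjusted p = 0.0698). For intraflagellar transport B, 16 of 17 listed genes were measured, 10 lower and 6 higher (median -0.08). Ift172 was at 3.70, 3.70 and 2.99 log2 CPM in the 5G2del libraries, against 3.72, 4.91, 3.91 and 3.98 in WT, a log2 fold change of -0.67 ± 0.32 with groups that just missed each other, and Ttc26 had -0.66 ± 0.45.

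Among myosin light chains, 6 of 11 listed were measured, 1 lower and 5 higher (median 0.34), and Myl9 was not among them. The broadly expressed regulatory light chains Myl12a and Myl12b had log2 fold changes of 0.32 ± 0.17 and 0.20 ± 0.23. Myl6b, an essential light chain, was at 2.80, 1.15 and 2.91 log2 CPM in the 5G2del libraries, against 0.63, -0.31, 0.59 and 1.82 in WT, a log2 fold change of 1.60 ± 0.62 with overlapping groups (limma adjusted p = 0.989).

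The zyxin family had 4 lower and 2 higher (median -0.12). Zyx and Lpp, adhesion site proteins like Trip6, had -0.01 ± 0.16 and -0.24 ± 0.16, and Wtip, with as few as 2 expected counts in a library, had 1.68 ± 1.15. Of the collagen processing genes, 16 of 20 listed were measured, 6 lower and 10 higher (median 0.24). The other lysyl hydroxylases Plod1 and Plod2 had 0.57 ± 0.37 and -0.44 ± 0.38 and overlapped between groups. P4hb, the disulfide isomerase subunit of prolyl hydroxylase, had 0.35 ± 0.15, and Loxl3, a lysyl oxidase, averaged 1.59 ± 0.18 log2 CPM in 5G2del and 2.61 ± 0.64 in WT (SD), a log2 fold change of -1.02 ± 0.41; both were without overlap and missed the threshold (limma adjusted p = 0.989 each).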

How the data were processed

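Total RNA of 7 libraries was sequenced as paired ends after Ovation RNA-Seq System V2 amplification, per the labels' protocols. The authors deposited log2 CPM per library with an offset of 0.5 count, for 16760 genes filtered before deposit, in 1 table with their log2 fold change, score columns (moderated t and log odds), p-value and q-value per gene. The submitters' processing notes name limma 3.50.3, RSEM 1.3.0, STAR 2.7.9a and the builds GRCh38 and mm10, with no roles. No source used here gives the filter on low genes or the scaling. Expected counts were recovered from the log2 CPM steps, and a voom fit on them returned the authors' deposited t scores to within 5e-10. Library sizes recovered the same way were below the sum of expected counts in 5G2del-C (41220904 against 47664360) and WT-C (34865421 against 42038974). The deposited values were thus not scaled to plain sums of counts, and the setting for mitochondrial ribosomal RNA rescaled values that were already scaled.

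5G2del was compared with WT over all genes with limma-trend (limma 3.58.1, R 4.3.3; the prior variance follows the mean level), all 7 libraries, no covariate, and Benjamini-Hochberg adjustment at 0.05. Fold changes are 5G2del over WT, with SE from that fit. Scripts were tested on simulated data. Nothing states that libraries came from separate animals, so p-values reflect only the spread of these libraries, which may be technical. Positions came from GENCODE M21 (16748 of 16760 identifiers matched), promoters from RefSeq.

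The members and lists were chosen with earlier results of these data known. Named partners are the closest paralogs or partners and, per list, the 2 with the smallest p; Sde2, Fblim1, Fkbp10, Sfrp5, Thbs1 and the B lineage genes were named after their values were seen. Alternatives were another variance model, voom weights, 3 scalings, a filter, another offset and each library left out.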

Additional observations from a re-analysis of the deposited data

Results flagged for a closer look

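Of 48 sets of 4 WT values examined (the 10 genes, the named partners, the end genes and 3 library measures), 2 had a library far from the other 3, about what chance gives at 1 in 20. Ncbp3, a cap-binding protein gene and partner of Srrt, was at 5.78 log2 CPM in WT-B, against 4.67 to 4.73 in the other WT libraries. WT-B also had 1104 genes at 0 expected counts, against 105 to 226 in the other WT libraries.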

How the results depend on the processing

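Each of the 10 genes kept a lower mean in 5G2del under every scaling, weighting and offset tried, and under every library left out except Trip6, which ran from -0.52 to 0.19 in log2 fold change with 1 library left out and turned without 5G2del-A. The median of the 10 ran from -0.77 without WT-A to -0.53 without 5G2del-C. It was -0.70 when the deposited values were rescaled for each library's share of mitochondrial ribosomal RNA. That scaling also moved the median of all genes by -0.09. It gave 612 genes lower at an unadjusted p under 0.05, and 743 genes and 3 of the 10 with every 5G2del library below every WT library. Limiting the table to genes with a mean log2 CPM over 2, which leaves out Alkbh4, gave 223 and 304 genes for these counts because fewer genes were tested. With 1 library left out, 701 to 1098 genes and 2 to 5 of the 10 did not overlap, partly because fewer libraries have to be separated. Genes called over all genes came to 1 without the trend (Sfrp5) and to between 0 and 1 with a library left out (Thbs1 without 5G2del-C); partner genes called stayed at 0 in all settings. No paired analysis was possible because the columns of the table carry no replicate number. Among the 10 genes, counts were lowest for Alkbh4, with 46 expected counts in 5G2del-C.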
